A study of Mus musculus with 56 samples.

Results

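The comparison set 7 inbred mouse strains that carry the rd1 allele of Pde6b against 14 sighted inbred strains, in frontal cortex and in nucleus accumbens. The rd1 strains were BUB/BnJ, C3H/HeJ, CBA/J, FVB/NJ, PL/J, SJL/J and SWR/J. The sighted strains were C57BL/6J, A/J, BALB/cByJ, 129S1/SvImJ, DBA/2J, AKR/J, NOD/LtJ, BTBR T+ tf/J, WSB/EiJ, KK/HlJ, I/LnJ, SM/J, NZW/LacJ and RIIIS/J. The members were chosen by strain name, with 14 arrays of rd1 strains and 28 of sighted strains, 42 of the 56 arrays in the series, and 8 other strains were left out. Carrying rd1 is knowledge about these strains and is not stated in the sample labels. Every array was made from a pool of 3 males of a single strain, aged 8 to 10 weeks, which were kept on a light and dark cycle, and the labels name no treatment. Each strain gave 1 array per region, so n counts strains, and each strain is 1 inbred background. The strains of a group share ancestry to unequal degrees, so the rd1 allele and the rest of the genome around and beyond it cannot be told apart. The alternatives below leave out strains or change settings, and they do not separate the allele from the genome around it.

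Pde6b encodes the beta subunit of the rod cGMP phosphodiesterase, the enzyme that lowers cGMP in rods in response to light. In mice homozygous for rd1 the enzyme fails, rods die in the first weeks of life and cones follow, so adults have lost image-forming sight. Melanopsin-bearing ganglion cells of the retina largely remain and still set the circadian clock. Frontal cortex and nucleus accumbens lie outside the primary visual pathway. Strains that share rd1 by descent can also share the stretch of chromosome 5 around it.

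In a fit without the filter on dim probe sets, the only genes called over both regions lay past Pde6b on the same chromosome. They are Gtpbp6, which encodes a putative GTP-binding protein, and its neighbour Zfp605, which encodes a zinc finger protein. Crlf2, the gene of a cytokine receptor subunit for thymic stromal lymphopoietin, lies nearer to Pde6b and is described with them. Their promoter windows are shown because Gtpbp6 and Zfp605 are next to each other on opposite strands, with 1394 bases between the 2 windows. Each window of 300 bases spans the gene's start and comes from RefSeq on GRCm38.p6, the reference of the sighted strain C57BL/6J, and CG pairs are in capitals. The sequence of the rd1 strains was not read here.
Gtpbp6 (chr5:110108148-110108447, minus strand): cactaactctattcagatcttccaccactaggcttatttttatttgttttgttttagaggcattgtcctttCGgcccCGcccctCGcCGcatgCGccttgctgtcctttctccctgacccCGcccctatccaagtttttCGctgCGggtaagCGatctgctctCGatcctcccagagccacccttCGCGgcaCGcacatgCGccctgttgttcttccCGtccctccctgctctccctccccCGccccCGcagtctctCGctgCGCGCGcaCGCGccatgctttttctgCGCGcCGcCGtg
Zfp605 (chr5:110109842-110110141, plus strand): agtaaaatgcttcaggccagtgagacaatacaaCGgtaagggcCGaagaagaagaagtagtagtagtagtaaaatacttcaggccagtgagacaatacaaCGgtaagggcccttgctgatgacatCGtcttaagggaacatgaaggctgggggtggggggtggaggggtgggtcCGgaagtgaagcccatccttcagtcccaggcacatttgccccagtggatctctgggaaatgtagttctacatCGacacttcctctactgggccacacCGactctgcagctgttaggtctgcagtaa
Crlf2 (chr5:109558944-109559243, minus strand): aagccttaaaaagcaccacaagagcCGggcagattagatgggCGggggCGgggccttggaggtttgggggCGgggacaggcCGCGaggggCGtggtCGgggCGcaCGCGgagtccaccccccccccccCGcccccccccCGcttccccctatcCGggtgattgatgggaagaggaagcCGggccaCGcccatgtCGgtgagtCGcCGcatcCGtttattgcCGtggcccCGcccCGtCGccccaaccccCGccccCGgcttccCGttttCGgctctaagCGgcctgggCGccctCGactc
The motif CG, which reads the same on both strands, occurred 27 times in the Gtpbp6 window, 7 times in the Zfp605 window and 31 times in the Crlf2 window, against a median of 7 in 32851 promoter windows. As many or more were held by 15.5% of all windows for Gtpbp6, 52.1% for Zfp605 and 10.6% for Crlf2.

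The arrays could not show the allele itself. The Pde6b probe set read 2.77, 2.85 and 2.96 (lowest, median and highest log2 intensity) in rd1 cortex and 2.75, 2.80 and 2.85 in sighted cortex. In accumbens it read 2.66, 2.69 and 2.75 in rd1 strains and 2.66, 2.71 and 2.75 in sighted strains. These levels are far below log2 5, the level under which probe sets were filtered out as dim, and the groups overlapped. The regions were checked against their markers. In accumbens the mean of the medium spiny neuron genes was 10.07 to 10.47 in rd1 strains and 7.64 to 10.40 in sighted strains, and in cortex it was 5.81 to 5.97 and 5.80 to 6.01. The median linear intensity of an array, not in log2, was 10.06 to 10.37 in rd1 cortex and 9.93 to 10.42 in sighted cortex. In accumbens it was 9.66 to 10.06 in rd1 strains and 9.77 to 10.13 in sighted strains. The number of arrays limits the precision.

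The first question was which genes differed between rd1 and sighted strains in each region and over both. In the planned test, limma on log2 intensity with Benjamini-Hochberg adjustment over 10684 features, 8811 of them genes and 1873 unnamed probe sets, 0 features passed an adjusted p of 0.05 in cortex, in accumbens or over both regions, a background of 0% in each. The smallest adjusted p was 0.155 in cortex, for Unc13c, 0.306 in accumbens and 0.221 over both regions. At an unadjusted p under 0.05 there were 1011 features in cortex (9.46%), of which 395 were higher in rd1 (3.7%) and 616 lower (5.77%). In accumbens there were 462 (4.32%), with 271 higher (2.54%) and 191 lower (1.79%), and over both regions 887 (8.3%), with 407 higher (3.81%) and 480 lower (4.49%). The groups did not separate without overlap for any of the 10684 features in cortex, accumbens or both (0%). The 95% confidence interval of a difference extended, at the median, 0.19 to either side in cortex, 0.22 in accumbens and 0.17 over both regions on the log2 scale. Differences smaller than this could not be told from 0 for a typical feature. These intervals are not adjusted for the number of features, so larger differences could also fail the adjusted test. Crlf2, at 0.49 over both regions, did (limma adjusted p = 0.221). Over both regions 8 features were higher and 5 lower by at least 1 log2 unit.

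A second fit, planned as an alternative, left out the filter on dim probe sets and tested 28253 features. Over both regions it called 2 of them (0.00708%), Gtpbp6 and Zfp605, and in cortex 1 (0.00354%), Zfp605. The direction of both was higher in rd1. They were thus called under this alternative and not in the planned main test, which did not include them because they were too dim. With a filter added after the values were seen, which kept probe sets above log2 5 on at least 7 of the 42 arrays, 1 of 10930 features was called over both regions (0.00915%), Gtpbp6. That filter lends the call no support of its own, since Gtpbp6 passed it through its high group: it exceeded log2 5 in 7 of 7 rd1 strains and 3 of 14 sighted strains in cortex, and in 0 of either group in accumbens. Each gene was read by 1 probe set, and the sequences of its probes were not used here.

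Gtpbp6 read 5.25, 5.50 and 5.83 (lowest, median and highest log2 intensity) in rd1 cortex and 4.46, 4.76 and 5.33 in sighted cortex. In accumbens it read 3.76, 4.23 and 4.75 in rd1 strains and 3.04, 3.75 and 4.07 in sighted strains. Within a region the groups overlapped, since 3 sighted strains in cortex (I/LnJ, RIIIS/J and WSB/EiJ) and 5 in accumbens passed the lowest rd1 strain. Averaged over both regions, the lowest of the 7 rd1 strains lay at 4.69 and the highest of the 14 sighted strains at 4.66, so the groups did not overlap. Among the 28253 features tested without a filter it was the only one whose groups stood apart in this way with rd1 higher (0.00354%), and none stood apart with rd1 lower (0%). The mean was 4.91 ± 0.14 in rd1 (SD, n = 7) and 4.27 ± 0.20 in sighted strains (SD, n = 14), a difference of 0.64 log2 units (SE 0.08, 1.56-fold, limma adjusted p = 0.00436 with no filter). By region the difference was 0.71 (SE 0.12, adjusted p = 0.114, limma) in cortex and 0.57 (SE 0.14, adjusted p = 0.999, limma) in accumbens.

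Zfp605 read 3.34, 4.53 and 4.86 (lowest, median and highest log2 intensity) in rd1 cortex and 2.45, 3.00 and 3.65 in sighted cortex. In accumbens it read 3.00, 3.47 and 4.38 in rd1 strains and 2.59, 2.96 and 3.32 in sighted strains. In cortex 6 of the 7 rd1 strains lay above every sighted strain, and SWR/J, at 3.34, lay below the sighted strain RIIIS/J, at 3.65. The mean over both regions was 3.98 ± 0.47 in rd1 (SD, n = 7) and 2.93 ± 0.19 in sighted strains (SD, n = 14), a difference of 1.05 (SE 0.14, 2.07-fold, limma adjusted p = 0.00436 with no filter). In cortex the difference was 1.45 (SE 0.17, limma adjusted p = 0.00144) and in accumbens 0.65 (SE 0.15, limma adjusted p = 0.999). The difference of the 2 regions' differences, -0.80 in accumbens minus cortex (SE 0.16), had a limma adjusted p of 0.401 with no filter, so a regional difference was not shown. Every value of Zfp605 in both groups lay below log2 5, so its fold is one of dim probe intensities.

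**Figure D1:**
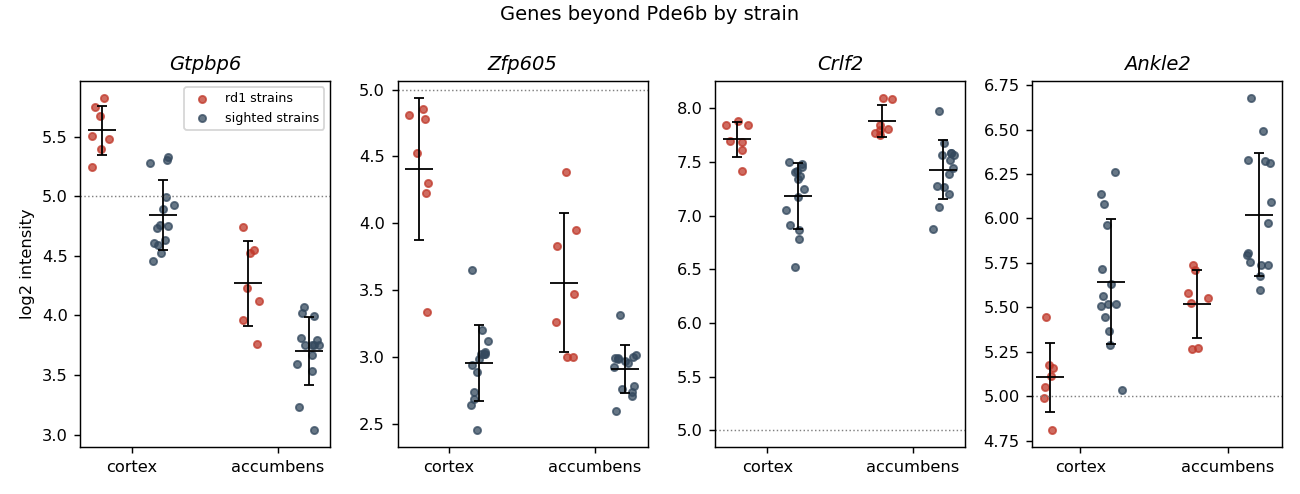
Log2 intensity (y axis) of Gtpbp6, Zfp605, Crlf2 and Ankle2 in each strain by region, rd1 strains in red to the left of sighted strains in blue, with the mean and SD as bars and log2 5, the filter level, dotted. Gtpbp6 and Zfp605 sit higher in rd1 strains in both regions, Crlf2 likewise at a brighter level, and Ankle2 lower.

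The 2 calls were tested for dependence on single strains and settings, in fits without the filter over both regions. With each of the 21 strains left out in turn both genes stayed past the threshold in 21 of 21 fits, with differences of 0.61 to 0.68 for Gtpbp6 and 0.94 to 1.18 for Zfp605. Of 9 other alternatives Gtpbp6 passed in 7 and Zfp605 in 8. Without the Swiss-derived strains FVB/NJ, SJL/J, SWR/J and NOD/LtJ Gtpbp6 had a difference of 0.65 and an adjusted p of 0.232 (limma). Without the 5 strains whose accumbens arrays had low striatal or high cortical markers (BALB/cByJ, WSB/EiJ, NOD/LtJ, SJL/J and BUB/BnJ) the differences were 0.68 and 0.85 and the adjusted p values 0.112 and 0.329 (limma). With albino coat, present in 5 of 7 rd1 strains and 7 of 14 sighted strains by strain knowledge, as a covariate, the adjusted p values were 0.0121 for Gtpbp6 and 0.0125 for Zfp605 (limma).

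Crlf2, 44 annotated genes past Pde6b, passed the filter and did not pass the test. It read 7.42, 7.70 and 7.88 (lowest, median and highest log2 intensity) in rd1 cortex and 6.52, 7.29 and 7.503 in sighted cortex. In accumbens it read 7.75, 7.80 and 8.10 in rd1 strains and 6.88, 7.48 and 7.98 in sighted strains. In accumbens 1 sighted strain, A/J, passed the lowest rd1 strain, and in cortex 3 did. Over both regions the mean was 7.79 ± 0.14 in rd1 (SD, n = 7) and 7.30 ± 0.25 in sighted strains (SD, n = 14), a difference of 0.49 (SE 0.10, limma adjusted p = 0.221). When the 42 arrays were fitted singly with strain as a random block, Crlf2 passed the test (limma adjusted p = 0.00921). That fit took 1 correlation between the 2 regions of a strain, 0.222, for all features. Where a gene's regions follow each other more closely, it counts a strain's 2 arrays as more independent than they are. Its p-values can then be too small. Ankle2, which encodes a nuclear envelope protein needed in mitosis, lies 67 genes past Pde6b. It had 5.31 ± 0.14 in rd1 and 5.83 ± 0.34 in sighted strains over both regions (SD, n = 7 and 14), a difference of -0.52 (SE 0.13, limma adjusted p = 0.45, and 0.0138 with strain as a random block). Another kept probe set of Ankle2 differed by -0.35 in cortex and -0.20 in accumbens.

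The neighbourhood of Pde6b was described by gene order, since the arrays name no genome build. Within 50 genes of Pde6b, the window set for this report, 5 of 20 features tested had an unadjusted p under 0.05 over both regions (25%), against 8.3% of all features and 35 of 492 on the rest of chromosome 5 (7.11%). In the next 50 genes to either side there were 3 of 18 (16.7%), and from there out to 200 genes 3 of 41 (7.32%), in bins added after the values were seen. With no filter the shares were 6 of 32, 7 of 35 and 5 of 92 features, against 6.24% of all 28253. The features of such a window share a chromosome and descent, so they are not independent of each other, and none of the features within 50 genes passed the adjusted threshold. Cdc7, a kinase gene of DNA replication that precedes Pde6b, differed by -0.31 (SE 0.11), Pcgf3, a polycomb gene 7 genes after it, by -0.21 (SE 0.09), and Tmed5, a gene of vesicle transport that also precedes it, by 0.19 (SE 0.08). Coro1c, an actin-binding gene 167 genes past Pde6b, differed by -0.31 (SE 0.07, limma adjusted p = 0.235). Golga3, 66 genes past it, differed by 0.18 and by -0.09 when probe sets prone to cross-hybridisation were left out.

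**Figure D2:**
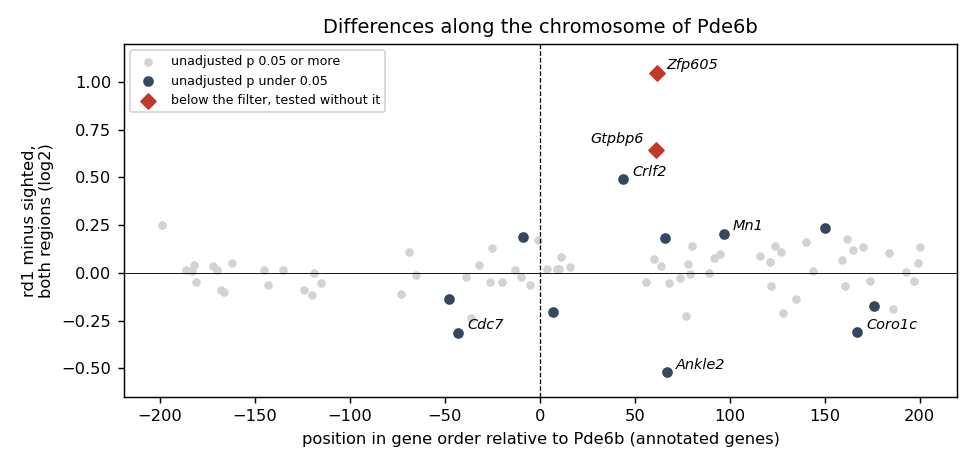
Difference between rd1 and sighted strains over both regions (y axis, log2) against the position in gene order relative to Pde6b (x axis, annotated genes), with features at an unadjusted p under 0.05 dark and the 2 genes tested without the filter as red diamonds. Zfp605, Gtpbp6 and Crlf2 stand highest, between 44 and 62 genes past Pde6b, and Ankle2 lowest.

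Genes on other chromosomes that led the comparison were chosen after their values were seen and passed no adjusted threshold in the main test. Golga7b, Sox2ot and Car8 passed when the 42 arrays were fitted with strain as a random block (limma adjusted p = 0.00921 each). As for Crlf2, that fit used the correlation of 0.222 for all features, so these p-values can be too small. Golga7b, a gene of a palmitoyltransferase complex, read 6.71, 7.01 and 7.29 (lowest, median and highest log2 intensity) in rd1 cortex and 4.39, 4.99 and 7.22 in sighted cortex. In accumbens it read 5.07, 5.36 and 5.98 in rd1 strains and 3.69, 4.38 and 5.23 in sighted strains. The rd1 strains were uniformly high, and in cortex the sighted strains 129S1/SvImJ, AKR/J and I/LnJ were as high. Over both regions the difference was 1.24 (SE 0.27, limma adjusted p = 0.235), and a second kept probe set differed by 0.73 in cortex and 0.12 in accumbens.

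Sox2ot, a long non-coding RNA that overlaps the Sox2 gene, was lower in rd1 strains. It read 2.98, 4.26 and 6.25 in rd1 accumbens and 3.69, 6.69 and 7.29 in sighted accumbens (lowest, median and highest log2 intensity). PL/J, at 6.25, stood among the sighted strains, and A/J, at 3.69, and WSB/EiJ, at 4.36, among the rd1 strains. Over both regions the difference was -1.58 (SE 0.35, limma adjusted p = 0.235). Car8, a carbonic anhydrase-related gene that acts on inositol trisphosphate receptors, differed by -0.88 (SE 0.19, limma adjusted p = 0.235), with 5.05 ± 0.10 in rd1 and 5.94 ± 0.53 in sighted strains (SD, n = 7 and 14). Its other 2 probe sets reached at most 3.48 on any of these arrays. Unc13c, a gene of synaptic vesicle priming, read 6.51, 6.79 and 6.93 in rd1 cortex and 5.79, 6.24 and 6.57 in sighted cortex, a difference of 0.48 (SE 0.09, limma adjusted p = 0.155). In accumbens it differed by 0.15 (SE 0.15). Ago4, an Argonaute gene, differed by 0.30 (SE 0.06, limma adjusted p = 0.221) over both regions, and Cnpy2, an endoplasmic reticulum gene, by -0.36 (SE 0.08, limma adjusted p = 0.392).

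**Figure D3:**
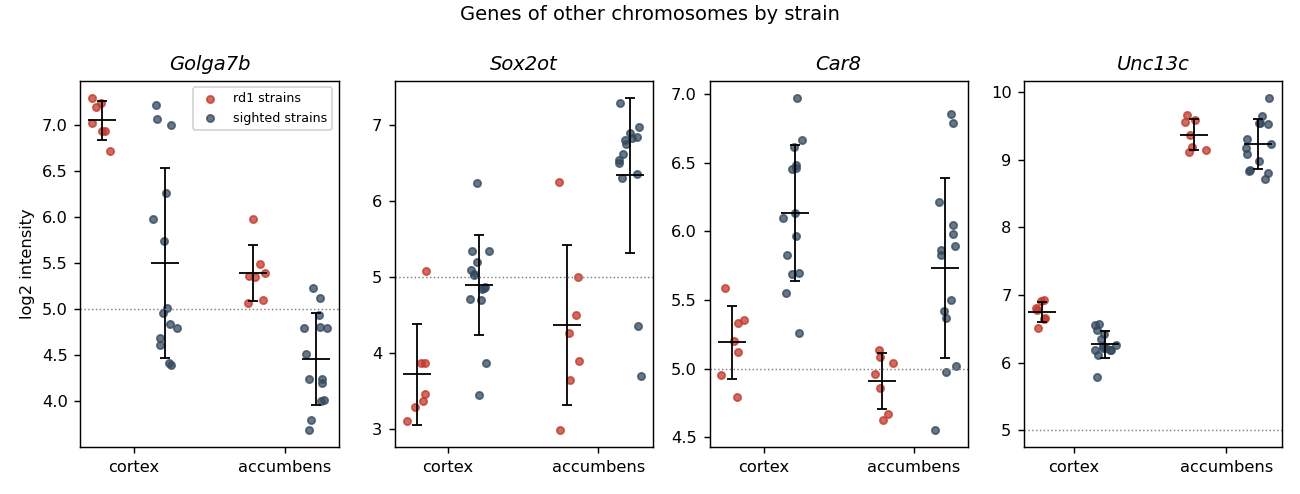
Log2 intensity (y axis) of Golga7b, Sox2ot, Car8 and Unc13c in each strain by region, rd1 strains in red to the left of sighted strains in blue, with the mean and SD as bars and log2 5 dotted where in range. Golga7b is tight and high in rd1 cortex while the sighted strains spread over 4.39 to 7.22.

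Photoreceptor genes came next, since rd1 acts in photoreceptors. Of 41 genes on the list 38 had a probe set, 30 of them below log2 5 on all 42 arrays, and 8 passed the filter. The rod genes Gnat1, the transducin alpha subunit, Sag, the arrestin, and Pde6a reached no more than 2.78, 3.13 and 2.50 on any array, and Opn4, melanopsin, 2.74. The 8 that passed are also used outside the eye. Of these 4 were higher and 4 lower in rd1 over both regions, none passed the test, and their median difference was 0.0037, against a median over all features of -0.0045. Gnb1, a G protein beta subunit, differed by 0.54 (SE 0.26, limma adjusted p = 0.595), with 11.09 ± 0.09 in rd1 and 10.55 ± 0.71 in sighted strains (SD, n = 7 and 14). The sighted strains spread from 9.07 to 11.25 over both regions, and 6 of them passed the lowest rd1 strain. BTBR T+ tf/J, C57BL/6J, KK/HlJ, NZW/LacJ and WSB/EiJ were the lowest in each region. Rpgrip1, a protein of the photoreceptor cilium, reached at most 4.98 in rd1 cortex and 8.93 in sighted cortex. Its mean differed by -1.01 in cortex, -0.31 in accumbens and -0.66 over both regions, and it did not pass the test. The highest values describe single strains, so a generally lower level in rd1 strains was not shown.

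Immediate early genes, which neurons switch on after activity, had mostly positive differences, and 0 of 19 passed the test. In accumbens 18 of 19 had a positive difference with a median of 0.46 log2 units, against a median of 0.0022 over all features, and over both regions 17 of 19 with a median of 0.31. In cortex the differences ran from -0.44 for Btg2 to 0.63 for Arc. Ier2 counts among the 18, though its accumbens medians were near the floor, at 2.63 in rd1 and 2.62 in sighted strains. Arc, which acts at active synapses, read 6.06, 7.47 and 8.39 in rd1 accumbens and 4.78, 6.50 and 7.44 in sighted accumbens (lowest, median and highest log2 intensity). Arc differed by 0.82 over both regions (SE 0.29, limma adjusted p = 0.487), and 8 sighted strains passed the lowest rd1 strain. Nr4a1, Npas4 and Egr1 differed by 0.56, 0.50 and 0.31 over both regions. These genes are induced together, so the members are not independent.

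Circadian clock genes were higher in rd1 in 15 of 18 over both regions, with a median of 0.10 and 0 past the test. Hlf, a clock output gene, differed by 0.30 (SE 0.14, limma adjusted p = 0.579), Per3 by 0.31 and Tef by 0.14. For Hlf, SWR/J stood highest in rd1 cortex (10.61) and BALB/cByJ lowest in sighted accumbens (7.40). Its difference over both regions ran from 0.10 to 0.35 under the alternatives other than leaving out 1 strain. The time of day of dissection is not given in the labels. Without the Swiss-derived strains 10 of 18 were higher over both regions, with a median of 0.05. With the 5 strains of doubtful accumbens arrays left out, 13 of 18 were higher over both regions, with a median of 0.09. In accumbens the median was then 0.04.

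In accumbens the markers of several cell types lay largely on one side. All 23 measured medium spiny neuron genes were higher in rd1 accumbens, with a median of 0.30, and 0 passed the test. Cortical excitatory neuron genes were higher in 17 of 18, with a median of 0.28, and Slc17a7, the vesicular glutamate transporter of these cells, read 2.91, 3.29 and 7.57 in rd1 accumbens and 2.71, 2.93 and 7.06 in sighted accumbens (lowest, median and highest log2 intensity). Oligodendrocyte and myelin genes were lower in 12 of 12, with a median of -0.16. In cortex the medians of the same lists were -0.0043, 0.01 and -0.10. Without the 5 strains of doubtful accumbens arrays the accumbens medians were 0.11 for medium spiny neurons, 0.08 for cortical excitatory neurons, 0.26 for immediate early genes and -0.29 for myelin. The first 3 lists were then higher in 22 of 23, 13 of 18 and 19 of 19, and the myelin genes lower in 12 of 12. Without SWR/J alone, the myelin genes were lower in 9 of 12 in accumbens, with a median of -0.06. Astrocyte genes were mostly lower in accumbens too, where only Gfap (0.34) and Sox9 (0.01) were higher. They were lower in 13 of 15 without SWR/J (median -0.10) and in 9 of 15 without the 5 doubtful strains (median -0.02). The part of cell composition in these differences was not tested, and in tissue RNA fewer cells of a type and less RNA per cell cannot be told apart.

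Microglia genes were lower in rd1 in 10 of 13 over both regions, with a median of -0.12 and 0 past the test. P2ry12, a purine receptor of resting microglia, differed by -0.53 (SE 0.15, limma adjusted p = 0.46) and C1qb, a complement gene, by -0.44 (SE 0.16, limma adjusted p = 0.489). Aif1, another microglia marker, differed by 0.29 (SE 0.13). Astrocyte genes were lower in 9 of 15, interneuron genes in 7 of 12, endothelial and mural genes in 3 of 11, choroid plexus genes in 4 of 4 and antigen presentation genes in 2 of 7, with medians of -0.07, -0.04, 0.04, -0.14 and 0.05. The choroid plexus genes were not uniformly lower by region. Ttr differed by -0.62 in cortex, where the sighted strain SM/J alone read 10.53, and by 0.16 in accumbens. In cortex Igf2, Igfbp2 and Clic6 differed by 0.03, 0.02 and -0.0012. Synaptic plasticity genes were higher in 16 of 23, with a median of 0.07. None of these lists had a member past the test, and no blood gene was measured.

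**Figure D4:**
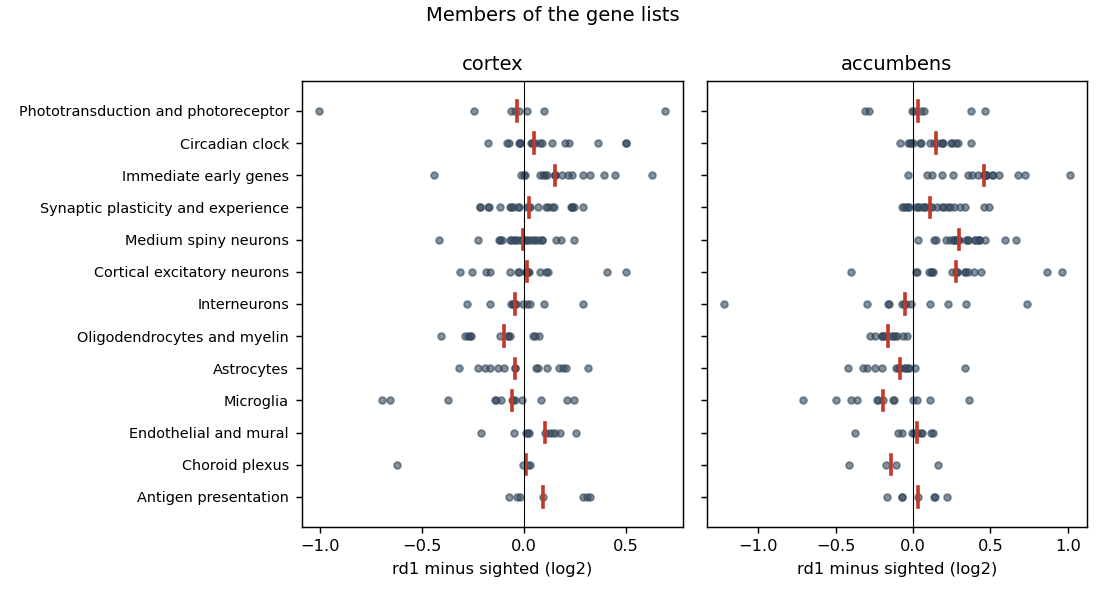
Difference between rd1 and sighted strains (x axis, log2) of each measured member of the gene lists (rows) in cortex and in accumbens, with the median of each list in red. In accumbens the medians of immediate early, medium spiny neuron and cortical excitatory neuron genes lie right of 0 and that of myelin left of it.

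The difference between regions was tested within strains, as accumbens minus cortex. None of 10684 features passed (0%), and 4.92% had an unadjusted p under 0.05, 355 higher in rd1 (3.32%) and 171 lower (1.6%). The smallest adjusted p was 0.242. The groups separated without overlap for 1 feature (0.00936%), Arhgap12. Its accumbens minus cortex difference was 0.74, 0.81 and 1.01 (lowest, median and highest) in rd1 and 0.07, 0.44 and 0.66 in sighted strains, and the group difference was 0.39 (SE 0.08, limma adjusted p = 0.242). Cntn4 and Cntn6, adhesion genes of axons, differed by 0.53 (SE 0.11) and 0.73 (SE 0.16), with limma adjusted p of 0.281 and 0.366. The signs of the rd1 difference in the 2 regions matched in 62.3% of features.

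RNA quality was compared by array measures. The 3′ minus 5′ signal of the actin control probe sets, which grows as RNA degrades, was 1.91 ± 0.33 in rd1 cortex (SD, n = 7) and 1.66 ± 0.23 in sighted cortex (SD, n = 14), an exact two-sided permutation p of 0.0586. In accumbens it was 1.96 ± 0.23 in rd1 and 1.89 ± 0.18 in sighted strains (SD), exact p 0.469. The 10 array measures tested also held cell-type scores and array intensity. In each region they were the actin and Gapdh 3′ minus 5′ signals, the median intensity, the spiny minus cortical list mean and the myelin list mean. None passed after Benjamini-Hochberg adjustment of the permutation p (smallest 0.251), and the part of RNA quality in the comparison was not tested. The SWR/J cortex array had the highest value, 2.62, and without SWR/J the cortex features at an unadjusted p under 0.05 numbered 712 in place of 1011. Without SWR/J, Gtpbp6 and Zfp605 differed by 0.63 and 1.18 over both regions, with adjusted p of 0.0136 and 9.27e-05 (limma, no filter).

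**Figure D5:**
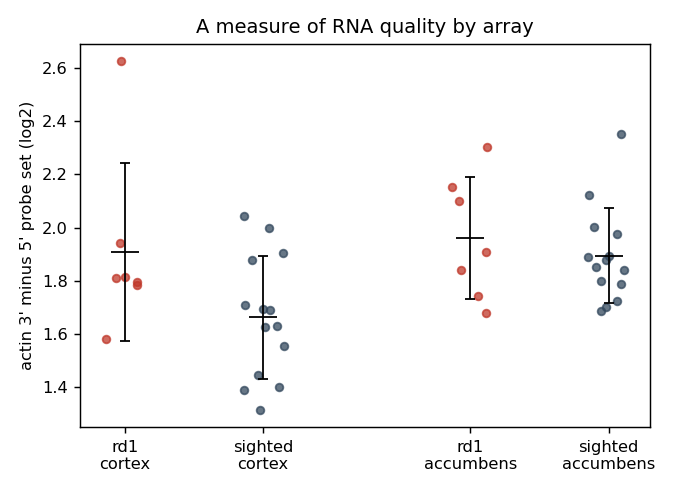
Actin 3′ minus 5′ probe set signal (y axis, log2) of each array by group, with mean and SD as bars. The rd1 cortex arrays reach 2.62, above the highest sighted cortex array at 2.04.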

How the data were processed

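The authors deposited a table of linear intensity per probe set from 1-colour arrays. The submitters' processing notes name GCRMA, with no version given in the sources used here. The 2 regions carry separate quantile distributions, so levels are compared within a region. The mean of the 2 regions and accumbens minus cortex are compared only between the groups of strains. Intensity was turned to log2 without a pseudocount. Probe sets had to exceed log2 5 on 13 or more of the 54 arrays of strains with both regions, and each gene entered once, through the brightest that did. rd1 minus sighted was tested with limma 3.58.1 in R 4.3.3 (lmFit, eBayes, Benjamini-Hochberg, threshold 0.05) in cortex, in accumbens, on the mean of the 2 regions per strain and on their difference. Array measures used exact two-sided permutation tests over 116280 permutations. Tables and figures were made in Python 3.11.15.

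The strains, gene lists and rule were chosen with earlier results of these data known. The named-gene rule took the 4 list members and the 6 regional genes of smallest p. Its parts that need a call named no gene but Pde6b, since the planned test made none. Genes of smallest p or largest difference, the bins beyond 50 genes and the filter at 7 of 42 arrays were chosen after the values were seen. Each comparison was refitted under 36 to 38 alternative settings, 21 of them leaving out 1 strain. In the 36 of accumbens 0 settings made a call, and in cortex 3, over both regions 5 and in the regional difference 1 made any. The test was checked on simulated data. With 1 pool per strain and region, p-values measure the spread between strains, which holds that of pools.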

Additional observations from a re-analysis of the deposited data

Results flagged for a closer look

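Of 188 groups of 7 rd1 strains tested, 23 held a strain far from the others by Dixon's test at its 95% critical value. Chance gives about 1 in 20, and the genes share arrays. SWR/J cortex, the array with the highest actin 3′ minus 5′ value, accounts for 7 of them. It was lowest for Glul (11.91 log2 intensity), Nos1 (4.65), Pcgf3 (6.04), Pde6d (5.85), Sst (9.36) and Zfp605 (3.34) and highest for Hlf (10.61). SWR/J accumbens was lowest for Gnal (11.06). PL/J cortex was highest for Ier2 (6.96), Six3 (3.42) and Sox2ot (5.08) and lowest for Slc1a3 (9.09), and PL/J accumbens was highest for Golga3 (6.70). BUB/BnJ was highest for Mobp in cortex (9.77) and for H2-Ea (6.51) and Ier2 (3.16) in accumbens. SJL/J was highest for H2-Ke6 in cortex (6.82) and Cplx2 in accumbens (10.89), and lowest for Sbsn in accumbens (6.55). C3H/HeJ was highest for Golga3 in cortex (6.48) and lowest for Gnb1 in accumbens (10.31). CBA/J was lowest for Arhgap12 in accumbens (6.14), and FVB/NJ for Nos1 in accumbens (5.42).

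Among the probe sets that the filter on dim values had left out of the main test, Gtpbp6 and Zfp605 were higher in rd1 by 0.64 and 1.05 log2 units over both regions.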

How the results depend on the processing

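The planned test made 0 calls in each of the 4 comparisons, and leaving out each strain in turn gave 0 to 0 calls in all 4. Calls appeared under few alternatives. In cortex no filter gave 1 (Zfp605), quantile normalization again 1 (Unc13c, limma adjusted p = 0.04) and leaving out C3H/HeJ and CBA/J 2 (Nckap1 and a probe set without a gene name). Over both regions no filter gave 2, the added filter (above log2 5 on 7 of the 42 arrays) 1 (Gtpbp6, limma adjusted p = 0.00129, a gene that passed that filter through its rd1 cortex values), and leaving out C3H/HeJ and CBA/J 1 (Nckap1). In place of strain means, the 42 arrays with strain as a random replicate block gave 6 calls (Car8, Crlf2, Golga7b and Sox2ot, limma adjusted p = 0.00921 each, Ankle2, 0.0138, and an unnamed probe set, 0.0497). The block fit took 1 correlation of a strain's 2 regions, 0.222, for all features. Its p-values can be too small for genes whose regions follow each other more closely. With no replicate block there were 13 calls, in a fit that treats both arrays of a strain as independent. These were the same 6 and Cnpy2, Ago4, Gart, Eif3k, Yae1d1, Lin7c and another unnamed probe set, with adjusted p from 0.00339 to 0.0484. In accumbens minus cortex, leaving out the 5 strains of doubtful accumbens arrays gave 1 (Acot9). The cause was not tested. Of 3637 gene values 3599 kept direction and side of the threshold. Reversed over both regions were Arhgap12 (0.0071), Igf2 (0.0004) and Igfbp2 (0.027) without C3H/HeJ and CBA/J, and Gm13306 (0.3515), H2-K1 (-0.2676), Igfbp2 (0.0803) and Nos1 (0.0035) without Swiss-derived strains. Golga3 (-0.0916) reversed without cross-hybridising probe sets, H2-K1 (-0.055), Nr1d2 (0.0162) and Unc119 (0.0174) without the 5 doubtful strains, and Igf2 (0.0608) and Igfbp2 (0.025) with the myelin mean as covariate. With 1 strain left out in turn, H2-K1 ranged from -0.1258 to 0.6623, Igf2 from -0.1896 to 0.016 and Igfbp2 from -0.108 to 0.0496, and H2-Ke6 from -0.1264 to 0.0088, with 0.0027 without BALB/cByJ. Signal close to background limits Gtpbp6 and Zfp605.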
